A study of Mus musculus with 5 samples.

Results

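Hand1 is a basic helix-loop-helix transcription factor of early mesoderm, the extraembryonic mesoderm and the developing heart. Proteins of this class bind DNA as pairs, usually with a ubiquitous partner, at short sites called E-boxes with the letters CANNTG. Many sites of such factors lie far from promoters, in introns or between genes, where enhancers are found. The peaks described here are Hand1 peaks more than 10 kb from every protein-coding gene end. None overlapped a peak of a second factor, Foxf1, a forkhead protein of the lateral and cardiac mesoderm. Some lay at genes of small RNAs, and position alone does not mark a peak as an enhancer.

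The data are ChIP-seq peak lists: DNA bound by a protein is precipitated with an antibody and sequenced. Both lists come from E14, a mouse embryonic stem cell line, led towards the cardiac lineage. Cells formed embryoid bodies for 48 h and were re-aggregated for 40 h with 5 ng/ml VEGF, 10 ng/ml Activin A and 0.3 ng/ml BMP4, a stage labelled MES. The stage labelled CP followed after 32 h as a monolayer. Hand1-HA at MES was a knock-in of the HA tag, a short peptide, and is represented by 1 library. Foxf1-HA at CP was an inducible overexpression line with 2 libraries. The Foxf1 list used is filed under replicate 1, but pooling of the libraries before peak calling is not given in the sources used here. The other 2 of the 5 samples are inputs, 1 per stage, and were not analysed here. The lists thus differ at once in factor, in stage and in knock-in against overexpression, and a precipitation from untagged cells was not analysed here.

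Hand1-only distal peaks were chosen by position and overlap. Of 1134 lines in the Hand1 list, 1102 lay on chromosomes 1 to 19 and X, and 586 of these had a summit more than 10 kb from both ends of every protein-coding gene. Of these, 119 within 500 bp of a tRNA gene were removed, which left 467. Another 90 overlapped the Foxf1 list by 1 bp or more, and taking them out left 377 (33.2% of the list, 95% exact binomial interval 30.5% to 36.1%). They form 372 distinct intervals, since 5 intervals hold a pair of summits that count as separate members. With 1 library there is no replicate error: intervals given here cover counting error over peaks only, no comparison between groups of peaks was tested, and each difference is a description. The 3 members nearest to it, at Olfr273, Ctdsp2 and Tnni1, lay 10.02, 10.2 and 10.3 kb from a gene end with folds of 6.56, 9.47 and 5.25. The 3 peaks just short of it, at Rbm20, Olfr871 and Zfp608, lay at 9.98, 9.85 and 9.72 kb with folds of 8.74, 8.38 and 6.68. At the tRNA limit, a member at chr13:23506417-23507501 nearest to Btn2a2 (fold 14.5) lay 516 bp from the tRNA gene n-TWcca4.

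Most of these peaks lay far from the transcript starts for which a sequence window was at hand, so the genome letters beneath them were not used here. In 5 cases the summit fell in the window of 250 bases before to 50 bases after a RefSeq transcript start, which allows the sequence to be shown. The 250 bases before each start are printed (RefSeq, GRCm38.p6, plus strand in every case), with each E-box CANNTG in capitals. In 4 of the 5 the transcript is a long non-coding RNA (lncRNA). The other is an internal start of Dab2, which encodes an endocytic adaptor protein.
Gm30446, chr1:190048474-190048723: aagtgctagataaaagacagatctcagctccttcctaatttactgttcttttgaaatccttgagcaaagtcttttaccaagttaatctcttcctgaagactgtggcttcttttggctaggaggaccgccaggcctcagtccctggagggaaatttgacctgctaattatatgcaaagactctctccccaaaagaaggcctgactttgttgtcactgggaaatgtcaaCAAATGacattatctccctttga
Gm32128, chr1:191420325-191420574: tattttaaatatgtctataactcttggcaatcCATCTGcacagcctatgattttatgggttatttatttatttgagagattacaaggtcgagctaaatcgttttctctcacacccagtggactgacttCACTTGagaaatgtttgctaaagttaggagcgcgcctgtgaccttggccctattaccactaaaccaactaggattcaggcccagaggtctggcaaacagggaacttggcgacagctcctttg
Dab2, chr15:6386498-6386747: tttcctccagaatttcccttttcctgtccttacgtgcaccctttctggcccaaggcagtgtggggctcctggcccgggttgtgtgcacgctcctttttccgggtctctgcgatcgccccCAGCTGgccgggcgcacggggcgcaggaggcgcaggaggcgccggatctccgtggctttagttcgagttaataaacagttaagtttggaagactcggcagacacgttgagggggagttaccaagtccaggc
Gm5547, chr3:105815317-105815566: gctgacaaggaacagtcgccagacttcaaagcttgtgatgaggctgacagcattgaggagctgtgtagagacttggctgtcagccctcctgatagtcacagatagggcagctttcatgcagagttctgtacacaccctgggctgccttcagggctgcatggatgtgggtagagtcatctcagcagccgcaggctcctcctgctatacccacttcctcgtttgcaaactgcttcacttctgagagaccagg
2900052N01Rik, chr9:46913353-46913602: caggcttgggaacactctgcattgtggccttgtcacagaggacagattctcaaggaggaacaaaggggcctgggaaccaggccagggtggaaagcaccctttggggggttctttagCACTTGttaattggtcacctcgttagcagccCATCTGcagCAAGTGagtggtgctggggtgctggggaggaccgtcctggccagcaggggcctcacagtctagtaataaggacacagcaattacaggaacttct

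The peak at the lncRNA Gm30446 (fold 9.84, 26 fragments) had its summit 46 bases before the start and lay 69.4 kb from Prox1, a homeobox gene of lymphatic and cardiac development. At Gm32128 (fold 7.1) the summit was 5 bases beyond the start, just past the printed stretch, with the phosphatase subunit gene Ppp2r5a as nearest gene. The summits at Dab2 (fold 6.16), 2900052N01Rik (fold 6.01) and Gm5547 (fold 6.75) were 157, 179 and 228 bases before the start. The nearest genes were Gm4791 for 2900052N01Rik and Rap1a, a small GTPase, for Gm5547. An E-box was found in 4 of these 5 stretches, with Gm5547 as the exception. It was also found in 66.3% of the 32609 such stretches in the table. The E-box CATCTG was in 2 of the 5 (Gm32128 and 2900052N01Rik) and in 14.4% of all stretches. Each E-box named here also counts as a CANNTG match. The E-box CAGCTG was in 1 of the 5 (Dab2) and in 13.1% of all. Of GATA sites, AGATAA was found in 1 of the 5 and in 10.02% of all, and TGATAA in 0 of the 5 and in 7.89% of all. Of forkhead sites, TGTTGAC was found in 1 of the 5 (Gm30446) and in 2.08% of all, and TGTTTAC in 0 of the 5 and in 3.19% of all. The E-box CACGTG and the T-box site AGGTGTGA were in 0 of the 5, and in 6.06% and 1.13% of all. Both strands were read for each motif. Within 1 kb of a start in the set of start windows lay 13 of the 360 members that could be compared (3.61%, exact interval 1.94% to 6.10%). That set is incomplete. Among others it lacks starts for ribosomal and small nuclear RNA genes beneath members, so the share near all annotated starts is higher. They include 1 at Gm33026 beside Hand1, 871 bases from a start.

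The strength of a peak was read from the authors' fold enrichment at the summit. The median over the 377 members was 6.91, with quartiles of 6.16 and 9.0 and a range from 1.47 to 28.4. The median summit was inferred to hold 18 fragments, and the weakest 13 (see the processing for how fragments and the control level were solved). The other 445 Hand1 peaks away from tRNA genes had a median fold of 7.04 with quartiles of 5.83 and 9.59. The medians of the groups differed by -0.03 on the log2 scale (members minus others), with no error to set it against. By fold, 6 members stood among the 100 strongest of all 1102 Hand1 peaks on the named chromosomes. That ranking includes the 280 peaks at tRNA genes, whose median fold was 15.7. Members were narrower than Hand1-only peaks within 10 kb of a gene end, with a median width of 441 against 831 bp. The limits of the list matter for the weak members: 172 of 377 (45.6%) had a −log10 q-value of at least 10, close to the lowest value in the Foxf1 list, which was 10.01. In the Hand1 list the lowest value was 5.01. A Foxf1 site below 10.01 is thus absent from its list and could not remove a Hand1 peak. By −log10 q-value members were lower, with a median of 9.14 against 11.4 for the other 445 peaks.

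The members fall into 3 kinds of place. Inside a protein-coding gene lay 136 (36.1%, exact interval 31.2% to 41.1%). Another 24 lay in the array of 5S ribosomal RNA genes on chromosome 8, and 217 lay elsewhere between protein-coding genes. The share inside genes was close to the share of the available genome: of the 2068 Mb that lie more than 10 kb from every protein-coding gene end, 35.6% is inside such a gene. Per 100 Mb of such bases there were 18.5 members inside genes and 16.3 outside them, leaving out the 5S array. Exons were not marked in the gene table, so intron and exon could not be told apart and such peaks are called intragenic. Intragenic members had a median fold of 6.66 (quartiles 5.86 and 9.03). Intergenic members had 7.1 with the 5S array and 6.75 without it (quartiles of the latter 6.08 and 8.43). The median log2 fold of intragenic minus intergenic members was thus -0.09, and -0.02 without the array. The quartile ranges overlapped for nearly their whole length.

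**Figure D1:**
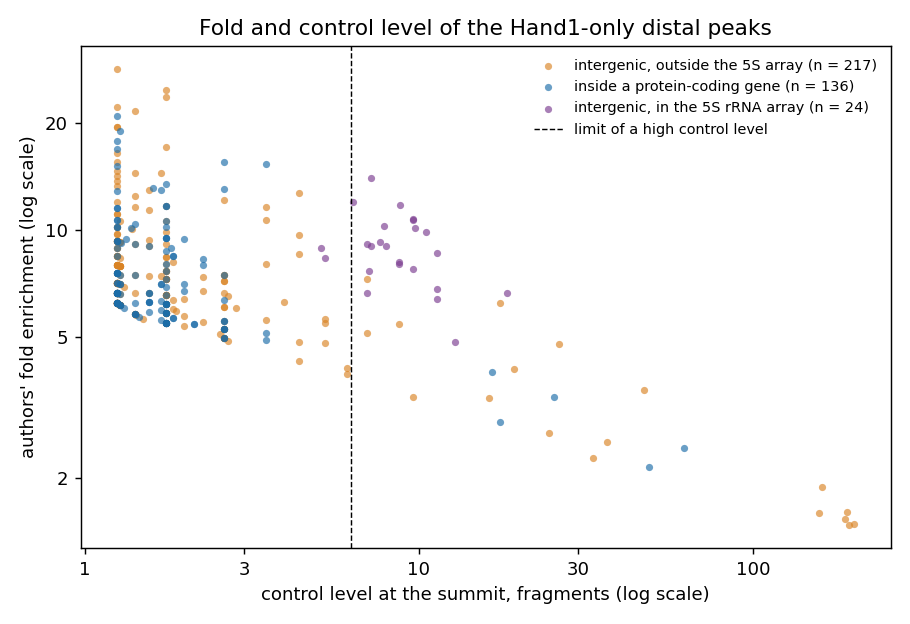
Each point is 1 of the 377 peaks, with the inferred control level at its summit on the x axis (fragments, log scale) and the authors' fold enrichment on the y axis (log scale). Most intragenic and other intergenic peaks lie at the left of the plot, but 17 of them, besides a chromosome 9 group, have high control levels of 6.98 to 61.9. The 24 peaks of the 5S array sit between control levels of 5.09 and 18.3, and the 6 peaks of that group lie alone at the lower right.

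The control level at the summit separated a part of the list. It was at its floor (under 1.3 fragments, lowest value 1.25) for 146 members, where the fold follows the fragment number and takes steps. The most frequent fold, 6.21, was shared by 26 members. A level of at least 5 times the lowest, 6.26, was called high and applied to 45 members (11.9%, exact interval 8.84% to 15.6%). Of these, 22 were in the 5S array, 18 were other intergenic members and 5 were intragenic. Among the 286 Hand1-only peaks within 10 kb of a gene end the share was lower, at 2.80% (exact interval 1.22% to 5.44%). Among the 90 distal peaks shared with Foxf1 it was 45.6%. The extreme was a group of 6 peaks at chr9:3008502-3029849, with folds from 1.47 to 1.89 on control levels of 157 to 199.8 fragments. The gene nearest to them, Alkbh8, was over 300 kb away. The vascular endothelial growth factor receptor gene Flt1 held a member (chr5:147611435-147611604) of fold 2.15 on a control level of 48.8. Without the array and without high control levels 330 members remained, 131 intragenic and 199 intergenic, with median folds of 6.66 and 7.1.

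The 5S ribosomal RNA is a short part of the large ribosomal subunit and is made by RNA polymerase III, the enzyme that also makes tRNA. Its genes stand in tandem between Gas8 and Rhou on chromosome 8, and the table lists 48 ribosomal RNA genes there. Of 30 Hand1 peaks in the array 24 were members (chr8:123547101-123622179), and 23 of the 48 genes had a member within 500 bp. Their folds ran from 4.83 to 14.01 with a median of 8.94, and their summits held 51 to 127 fragments. The Foxf1 list had 3 peaks in the array, which overlapped 3 of the Hand1 peaks. The control level was high for 22 of the 24, with a median of 8.72, and its part in the fold was not tested. The copies are nearly identical, so a fragment of 1 gene may be placed on another, and the gene under a given peak is uncertain.

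Genes for other small RNAs were also found among the distal peaks. Within 500 bp of a gene annotated as small nuclear RNA lay 11 members (2.92%, exact interval 1.47% to 5.16%). The share among other Hand1 peaks is not given here, so no preference can be read from the count. Among the 11, a pair near Eapp are summits of 1 interval. The strongest were a pair 32 kb from Arhgap5, which encodes a GTPase-activating protein. They stood at LOC115488100 (chr12:52603637-52604049, fold 21.5, 51 fragments) and Gm23296 (chr12:52604281-52604709, fold 13.8, 30 fragments). Inside Tex14, a gene of the germ cell bridge, members covered Rnu3b3 (fold 6.56) and Rnu3b4 (fold 7.65), genes of the U3 RNA that takes part in ribosomal RNA processing. Near BC107364 on chromosome 3 there were 3 members from 4.81 to 6.25 at Gm25890 and Gm22614, of which a pair are summits of 1 interval. None of the 11 had a high control level.

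**Figure D2:**
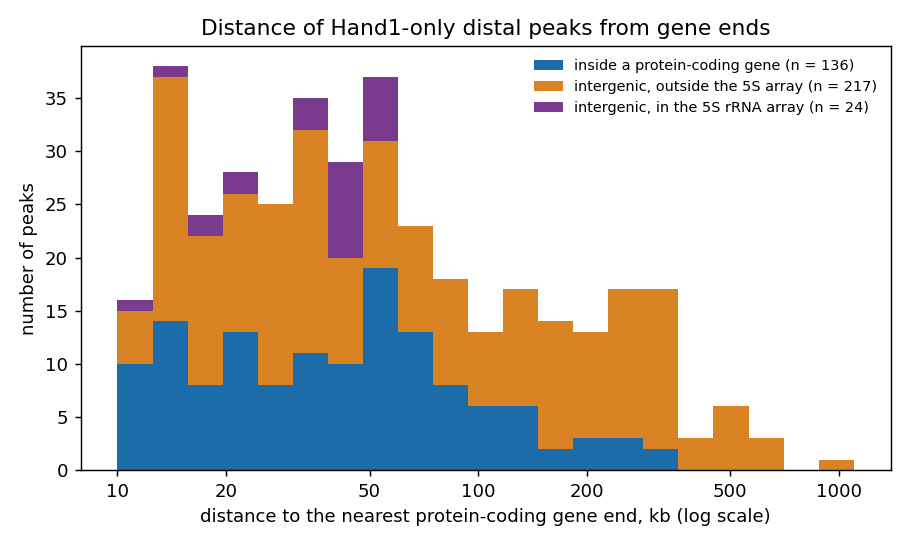
Stacked bars count the 377 peaks by the distance of their summit from the nearest protein-coding gene end (kb, log scale), coloured by place. The first bars start at the limit of 10 kb that chose the peaks, intragenic peaks reach 320.5 kb, and intergenic peaks reach 1015 kb.

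Intergenic members outside the array lay at all distances from genes. From the nearest protein-coding gene, 105 of the 217 (48.4%) were 10 to 50 kb away, 33 were 50 to 100 kb away, 73 (33.6%) were 100 to 500 kb away and 6 were beyond 500 kb. The median was 51.3 kb. For 171 of them the table gives the strand of the nearest gene, and 97 (56.7%, exact interval 48.9% to 64.3%) were upstream of it. The 5 most remote were nearest to 1700009N14Rik (1015 kb, fold 11.4), Neto1 (696.6 kb, fold 24.8), Gm40892 (682 kb, fold 6.23), Arpp21 (597.5 kb, fold 8.43) and Alcam (542 kb, fold 8.88). At Gm40892 the control level was high (17.4). At the other 4 it was at most 1.74.

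Intergenic members were often within lncRNA genes. Of the 217, 43 lay inside one (19.8%, exact interval 14.7% to 25.7%), while lncRNA genes cover 11.3% of the bases that are both distal and intergenic. Their median fold was 7.29, against 6.66 for the 174 outside lncRNA genes and the array. The control level was high for 1 of the 43 and for 17 of the 174. Its part in this difference was not tested. Over all 199 intergenic members outside the array without high control levels the median fold was 7.1. The genes nearest to these members were mixed: some are developmental regulators, others, such as Rps24 and Rpl38, are ribosomal protein genes. The share of regulators beside all lncRNA genes is not given here, so the cases below are examples only. The gene Rubie, upstream of the growth factor gene Bmp4, held a member at chr14:46573218-46573831 (fold 8.43, 18 fragments), 183 kb from Bmp4. Pvt1 held one at chr15:62158791-62159327 (fold 7.29), 169 kb from the proto-oncogene Myc. A930035F09Rik held one at chr8:128251772-128252112 (fold 10.6), 107 kb from Nrp1, which encodes a co-receptor for VEGF and semaphorins. Gm14055 held one at chr2:137288140-137288698 (fold 6.21), 172 kb from the Notch ligand gene Jag1. The members in Pvt1 and A930035F09Rik were picked after their values had been seen, while Bmp4 and Jag1 are in the signalling list used further on. Whether the lncRNA or the neighbour is relevant to a peak cannot be told from its position.

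The 10 intergenic members of highest fold outside the array were a mixed group. First was a peak 22.9 kb downstream of Dapk2, a calmodulin-regulated kinase (chr9:66294901-66295341, fold 28.4, 63 fragments, control level 1.25). It was the 18th strongest of the list. Next came peaks near Neto1, an auxiliary subunit of kainate receptors (chr18:85697921-85698333, fold 24.8), and near Alox5ap, needed for leukotriene synthesis (chr5:149320457-149321065, fold 23.7, inside the lncRNA Gm35620). The fourth lay 190 kb from the predicted gene Gm41099 (chr14:19278083-19278327, fold 22.2), and the fifth was the stronger of the pair at Arhgap5. Peaks near the RNA helicase gene Ddx1 (chr12:13198141-13198772) and the tubulin deglutamylase gene Agtpbp1 (chr13:59293041-59293391) both had a fold of 19.5 and 43 fragments. The last 3 were near Olfr774, an olfactory receptor gene (fold 17.1), Siah2, a ubiquitin ligase gene (fold 16.4), and 4933402E13Rik on the X chromosome (fold 15.5). None of these 10 had a high control level, and none of the nearest genes was in a list used here.

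Intragenic members lay in 126 genes, 118 of which held a single member. These were long genes, with a median length of 145 kb, against 49.4 kb for the 9975 protein-coding genes longer than 20 kb, the shortest that can hold a distal summit. A long gene offers more bases that meet the rule. The strongest was in Lsp1, which encodes an actin-binding protein of leukocytes (chr7:142482984-142483896, fold 20.9, 46 fragments, 11.5 kb from a gene end). Hunk, a gene of the SNF1-related kinase family, held 3 members within 26.5 kb. Their folds were 18.9 (chr16:90437208-90437771), 17.8 (chr16:90410805-90411602) and 8.46 (chr16:90418683-90419339), and the nearest Foxf1 summit was 607 kb from the strongest. The next were in Slc1a7, a glutamate transporter gene (fold 16.9), Aox2, an aldehyde oxidase gene (fold 15.5), and Cttnbp2, which encodes a cortactin-binding protein (fold 15.4). Tmprss11f, a serine protease gene, had a fold of 15.1. Then came Prkaa2, a catalytic subunit of the energy-sensing kinase AMPK (chr4:105092789-105093466, fold 13.5), and Dlgap1, a postsynaptic scaffold gene (fold 13.1).

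The nearest genes were then set against gene lists by the biology of this differentiation. Of 21631 protein-coding genes, 639 (2.95%) had a member within 100 kb of the gene body. Of the 32 cardiac mesoderm genes 8 did (25.0%), and all 8 had one outside the array and below the high control level, where the share of all genes was 2.81%. Within 50 kb the cardiac count was 7 of 32, against 1.53% of all genes. The count of 8 fell to 3 when only members with a −log10 q-value of 10 or more were kept, and to 5 with the ends of every annotated gene in the rule. The members themselves fell from 377 to 172 and 233. The shares of all protein-coding genes at these settings are not given here, so these counts are descriptions only. Of 14 vascular and blood progenitor genes 3 did (21.4%), or 2 without Flt1, and of 34 signalling genes 5 did (14.7%). There was 1 of 13 pluripotency genes (Prdm14), 1 of 14 mesenchyme genes (Fn1), 1 of 38 long adhesion and synaptic genes (Csmd3) and 0 of 13 neural genes. Peaks near cardiac genes were already known from these data when the lists were written, so the cardiac count is not independent evidence. Spacing also differs: the cardiac genes had a median of 136 kb of distal bases within 100 kb, all protein-coding genes had 106 kb, and the neural genes, with none called, had 160 kb. The part of spacing in the counts was not tested.

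**Figure D3:**
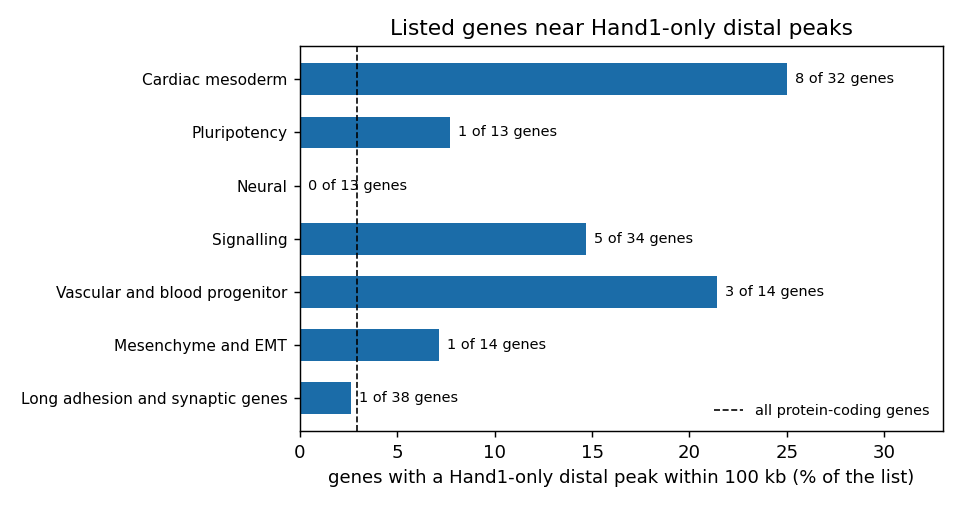
Bars give the share of each gene list (% of its genes) with a Hand1-only distal peak within 100 kb, with the counts beside them, and the dashed line marks the 2.95% of all protein-coding genes. The cardiac mesoderm bar reaches 25.0%, while the neural list has no gene and the long adhesion and synaptic list lies at 2.63%.

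Transcription factors of the cardiac mesoderm list came first. Hand1 itself had a pair of members on 1 side of the gene, at chr11:57864681-57865157 (fold 7.92, 17 fragments) and chr11:57866295-57866904 (fold 9.0, 22 fragments). They lay 32.7 and 34.6 kb from it, both inside the lncRNA Gm33026. Tbx3, a T-box repressor of the conduction system and outflow tract, had a pair at chr5:119651588-119652028 (fold 11.99, 26 fragments, 18.8 kb away) and chr5:119613400-119613867 (fold 7.47, 26 fragments, 56.9 kb away). The first was the strongest member near any of the 8 genes. Both lay in lncRNA genes, Gm16064 and Tbx3os1. Tbx2, a T-box repressor of chamber genes, had a pair 28.3 and 32.6 kb away (chr11:85804003-85804732, fold 4.98; chr11:85799926-85800191, fold 5.45) inside the neighbouring gene Bcas3. Their −log10 q-values, 5.27 and 5.76, were close to the lowest of the Hand1 list, 5.01. Eomes, a T-box factor that starts mesoderm formation, had a member 62.0 kb away (chr9:118415934-118416386, fold 8.38, 22 fragments) inside the lncRNA Platr11. Tbx1, a T-box gene of the second heart field, had a member 47.7 kb away (chr16:18533137-18533361, fold 7.55) inside Gnb1l. Hand1 peaks that are not members lay nearer to Tbx2 (folds 10.7 and 6.06 at 14.1 and 5.04 kb) and Tbx3 (fold 6.62 at 2.39 kb). The same held for Eomes (folds 5.12 to 7.65 at 0.626 to 1.78 kb). At Hand1 such a peak lay farther away, at 97.5 kb.

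The other 3 cardiac genes are a receptor, a chromatin subunit and a sarcomere protein. Kdr encodes the VEGF receptor that marks early cardiovascular progenitors. Its member (chr5:76012932-76013239, fold 7.04, 15 fragments) lay 34.0 kb away in the lncRNA Gm32727, with the nearest Foxf1 peak of the gene 161 kb from it. Smarcd3, which encodes a cardiac subunit of the SWI/SNF chromatin remodelling complex, held its member 15 kb from a gene end (chr5:24609248-24609833, fold 5.56, 14 fragments). For Tnnt2, which encodes cardiac troponin T, the member (chr1:135800598-135800870, fold 5.25, 18 fragments) lay 35.6 kb away and inside Tnni1, a gene of slow skeletal troponin I. For 5 of the 8 the gene itself was the nearest or holding gene of the member, and at Tbx1, Tbx2 and Tnnt2 another gene was nearer. Of the 8, 7 also had Foxf1 peaks within 100 kb, and none of these overlapped a member, as the rule requires. The Foxf1 list has 5703 peaks. The share of all protein-coding genes with a Foxf1 peak within 100 kb is not given here, so the count of 7 is a description only.

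**Figure D4:**
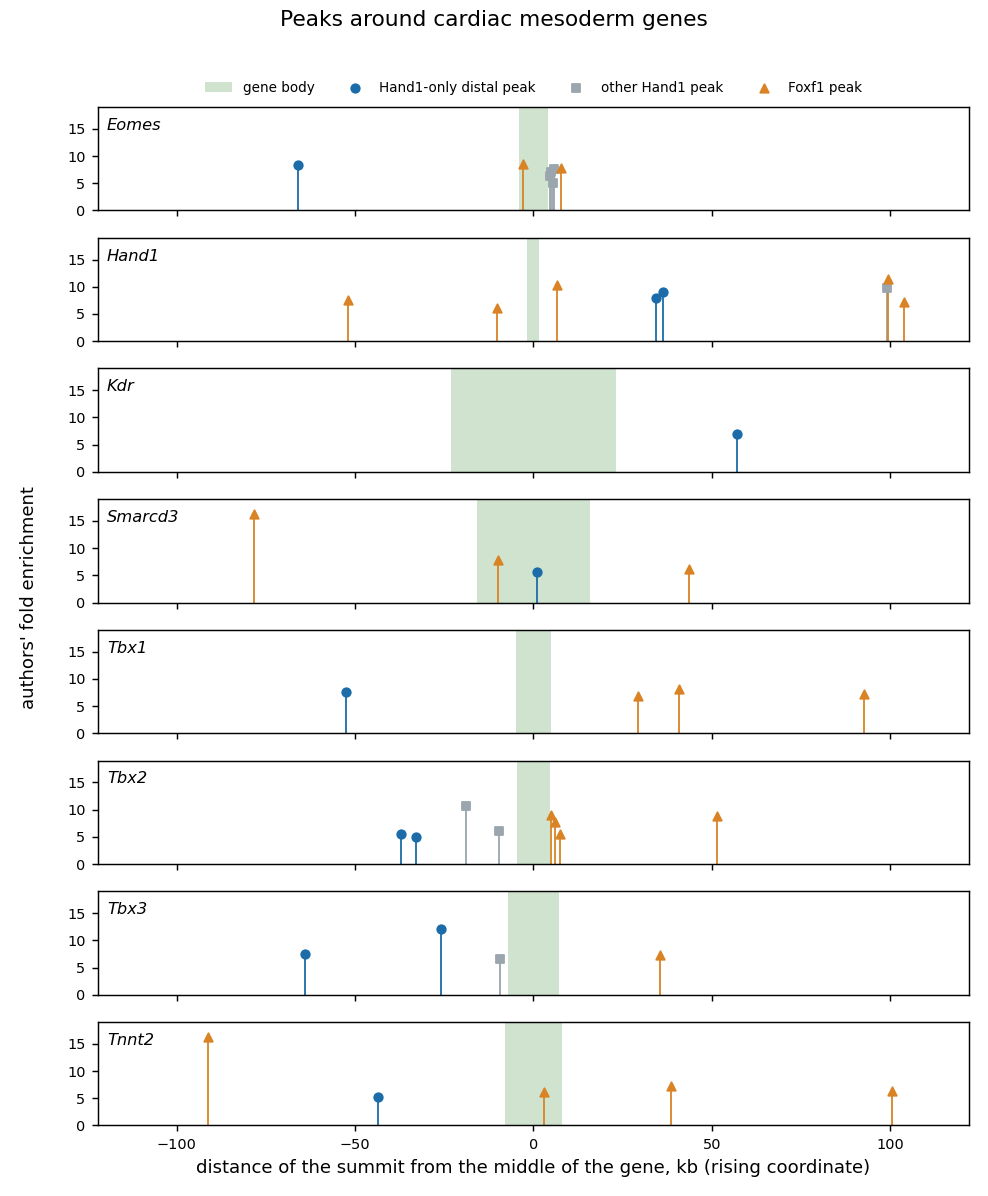
Each row is 1 of the 8 cardiac mesoderm genes, with the summit position relative to the middle of the gene on the x axis (kb, rising coordinate) and the authors' fold on the y axis. Green marks the gene body, circles the Hand1-only distal peaks, squares other Hand1 peaks and triangles Foxf1 peaks. Folds from separate lists are not on a common scale. The rule that chose the circles bars overlap with Foxf1 peaks, so their separation from the triangles is not a result. The row of Kdr has a single circle.

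Signalling genes with a member within 100 kb belong to the BMP, Wnt, Hedgehog and FGF pathways. Among ligands, Bmp7 held a member 15.1 kb from a gene end (chr2:172925009-172925392, fold 4.90, 21 fragments). Smad6, an intracellular inhibitor of BMP signalling, had one 23.2 kb away (chr9:64045125-64045648, fold 8.11, 22 fragments). Axin2, a negative feedback gene of the Wnt pathway, had one 10.8 kb away (chr11:108906777-108907195, fold 7.65, 20 fragments), where the nearest Foxf1 peak was 243 kb from the gene. Gli2, a transcription factor of Hedgehog signalling, had 1 member inside the gene (chr1:118904977-118905408, fold 6.16) and 1 that was 17.1 kb outside it (chr1:119071178-119071648, fold 6.66). Spry4, an inhibitor of FGF signalling, had one 91.2 kb away (chr18:38494687-38495143, fold 6.64), nearer to Ndfip1. At 200 kb the signalling count rose to 9 of 34 genes (26.5%). At that distance the share of all protein-coding genes was 5.98%, and the neural list had 2 of 13 (15.4%). The added signalling genes include Bmp4, Jag1 and Id2, the last with a member of fold 5.47 at 198 kb (chr12:25293838-25294037). None of the members named for signalling genes had a high control level.

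In the remaining lists, the platelet and endothelial adhesion gene Pecam1 had a member 17.2 kb away (chr11:106636947-106637162, fold 5.60, 13 fragments). The blood progenitor factor gene Tal1 had one 85.9 kb away (chr4:115157265-115157899, fold 6.21), with Cyp4x1 nearer. Prdm14, a pluripotency and germ cell regulator, had one 40.0 kb away (chr1:13073348-13073593, fold 6.66, 14 fragments). Fn1, the fibronectin gene, had one 28.2 kb away (chr1:71681100-71681650, fold 5.83), and Csmd3 one 40.6 kb away (chr15:47539959-47540167, fold 5.61, control level 5.23). The members of these 5 genes had 13 to 34 fragments. From the same list as Csmd3, Cntnap2 was the nearest gene of a member 267 kb upstream of it (chr6:44792779-44793227, fold 6.66). Of gene families, olfactory receptor genes were nearest to 3 of the 217 intergenic members outside the array (1.38%), and they make up 5.13% of protein-coding genes. Vomeronasal receptor genes were the nearest or holding gene of 3 of the 377 members (0.796%) and make up 1.64% of protein-coding genes. For Zfp genes the count was 6 (1.59%, against 1.85% of genes), of which 3 were at Zfp516 alone. For cadherin or protocadherin genes it was 3 (0.796%, against 0.448% of genes). A share of peaks and a share of genes are unlike measures. The share of distal bases nearest to each family is not given here, so no preference or avoidance can be read from these values.

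Other members lay beside or in regulators that no list holds. They were picked after their values had been seen and are named for their known roles only. Extracellular modulators include Bmper, which binds BMP (chr9:23203222-23203748, fold 12.4, 19.6 kb upstream), the Wnt inhibitor gene Wif1 (chr10:121016683-121017000, fold 7.19), and Rspo3, a Wnt enhancer (chr10:29569746-29570219, fold 6.21). Bambi, a decoy receptor for BMP and TGF-beta, was nearest to a pair (chr18:3543427-3543998, fold 7.44; chr18:3633565-3634369, fold 6.21). The chemokine receptor gene Cxcr4 was also nearest to a pair (chr1:128532525-128533064, fold 9.77; chr1:128803770-128804332, fold 7.19). Inside the cell, Smurf1, a ubiquitin ligase for BMP-pathway Smads, held a member of fold 9.32, and Apc, a part of the beta-catenin destruction complex, held one of fold 7.29. Among transcription factor genes, Pax2 was nearest to a member of fold 11.6 at 48.0 kb and Sox9 to one of fold 8.02 at 172 kb. Klf6 was nearest to a pair of folds 9.12 and 5.80. Tpm1, the tropomyosin 1 gene of muscle, lay 49.8 kb from a member of fold 14.5 (chr9:67099262-67099721, 34 fragments).

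Distances to the nearest Foxf1 summit were also measured, of which the rule barred overlap only. A Foxf1 summit lay within 10 kb of 34 of 377 (9.02%, exact interval 6.33% to 12.4%) and within 50 kb of 120 (31.8%). For the 286 Hand1-only peaks within 10 kb of a gene end the shares were 30.1% and 61.9%. Without members of high control level the share within 10 kb was 5.72%. The median distance to a Foxf1 summit was 112 kb for members and 29.1 kb for the peaks near gene ends. The part of Foxf1 peaks' own position near genes in this difference was not tested. In the Hand1 list, 29 members (7.69%) lay within 10 kb of a Hand1 peak that is not a member, and 51 (13.5%) within 50 kb. Within 50 kb of another member lay 76 (20.2%), 30 of them in the array and in the group on chromosome 9. These shares are not compared with those of other Hand1 peaks here.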

How the data were processed

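Peak lists of 2 samples were used, 1 per factor. Per the submitters' processing notes, Trim Galore 0.6.6, Bowtie2 2.3.4.3, SAMtools 1.9, deepTools 3.5.0 and MACS2 2.2.7.1 were used with build mm10. Control and pooling are not given in the sources used here. The authors deposited a fold enrichment (ratio), a −log10 p-value and −log10 q-value per summit, and a score of 10 times the −log10 p-value with decimals dropped. Fold is the authors' and was used within a list only. Depth is unknown. Fragments (k) and control level (λ) were solved from fold = (k + 1)/(λ + 1) and the Poisson tail, taking the higher λ, and k was whole within 0.05 for 100% of peaks in both lists. This reading is inferred. Genes came from the RefSeq table and start windows of GRCm38.p6 (mm10). All 158 list genes matched. Coordinates are 1-based. Distances run from the summit, clusters join members within 50 kb. Intervals are exact binomial (95%). Python 3.11.15, numpy 2.4.6, pandas 2.3.3 and scipy 1.17.1 were used, and the scripts were tested on simulated data.

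Members and gene lists were chosen with earlier results of these data known. The naming rule took the 10 of highest fold inside and outside genes, those within 100 kb of listed genes or with a listed gene as nearest gene, those of highest fold at non-coding genes, clusters of 3 or more, the 5 most remote and the 3 on each side of the distance limit. Other named members, among them those at transcript starts, small RNA genes and the tRNA limit, were picked after their values were seen. For the 10 outside genes the 5S array was not left out, and none of them is in it. Of the 10 inside genes, 9 are described and the other is not reported here. Alternatives changed the distance limit, the genes counted, the q-value, the control level, the overlap and merging.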

Additional observations from a re-analysis of the deposited data

How the results depend on the processing

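Of 70 alternatives over 8 results, 50 stayed within the counting interval (or within 1.5 times for counts), 18 moved and 2 changed sign. Of the 70, 8 (leaving out the 5S array) were chosen after seeing the data. Counting the ends of every gene left 233 members, 45.9% of them intragenic, 7.73% with a high control level, 6.01% with a Foxf1 summit within 10 kb, a median distance of 55.7 kb and 5 cardiac mesoderm genes. At a −log10 q-value of at least 10 there were 172 members, 29.1% intragenic, 20.9% with a high control level and 3 cardiac mesoderm genes. The log2 fold differences then turned to 0.083 (intragenic against intergenic) and 0.019 (members against other Hand1 peaks). Computed on the −log10 q-value instead, they were -0.35 and -0.32. The median distance was 37.1 kb at a limit of 5 kb and 57.4 kb at 20 kb, as the limit itself fixes. The share with a high control level was 5.57% at 10 times the lowest, and 6.52% without the array. The Foxf1 share was 31.8% at 50 kb, and 5.72% without high control levels. Causes of the other shifts were not tested. For the counts of 5 and 3 cardiac mesoderm genes, the shares of all protein-coding genes are not given here. Each factor had a single list, so no replicate could be left out. No paired analysis was possible because a lone list of a factor has no partner sample. The E-box share within windows around all summits was not run, since genome letters at the summits were not used here.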

Other observations

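Clusters of 3 or more members within 50 kb numbered 6. Beside the 5S array, the group on chromosome 9, Hunk and the small nuclear RNA genes near BC107364, they were at Slc6a6, the taurine transporter gene (chr6:91650924-91669342, 3 members, folds 4.88 to 5.90), and at Zfp516, a zinc finger gene of brown fat (chr18:82871039-82924090, 3 members, folds 6.26 to 7.92).

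Without the array and members of high control level, density ran from 0.0527 members per Mb on the X chromosome to 0.247 on chromosome 9, where 30 members remained. Chromosome 1, with 34 members, had 0.174 per Mb, and chromosome 8 had 0.0542.

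Members inside genes with cardiac roles that no list holds were found after their values had been seen: Rbm20, a splicing regulator of titin (chr19:53823944-53824248, fold 7.47), Dpf3, a chromatin reader of heart and muscle (chr12:83387342-83387831, fold 6.19), Ece1, the endothelin-converting enzyme gene (chr4:137909712-137910822, fold 5.83), and Chd7, a chromatin remodeller (chr4:8725503-8725852, fold 5.25).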
